A study of Caenorhabditis elegans with 2 samples.

Results

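The genes described here encode the proteins of the cytosolic ribosome of Caenorhabditis elegans. They were chosen by name, as the protein-coding genes of the Ensembl annotation of assembly WBcel235 whose names start with rpl-, rps- or rla-. This gave 81 of 19985 protein-coding genes, of which 47 name the large subunit, 31 the small subunit and 3 the stalk of the large subunit. The experiment mapped where the tagged protein CCCH-3, a member of the CCCH zinc finger family, is recovered along the genome by chromatin immunoprecipitation and sequencing. There was 1 group with 2 biological replicates and hence no contrast between conditions. Both replicates came from strain OP628, in which an integrated transgene, wgIs628, carries ccch-3 fused to TY1 EGFP 3xFLAG together with a functional unc-119(+) in the unc-119(tm4063) background. The animals were whole young adults of 70 hours, of mixed sex, grown from starved L1 larvae after bleaching, and the antibody recognised GFP. The tagged protein was made from a transgene in 1 strain, and whole animals mix all tissues, so the values are averages over cell types. The labels state biological replicates without saying how far the cultures were separate. A sample from untagged animals was not analysed here.

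A ribosome joins a small subunit, which reads the messenger RNA, with a large subunit, which forms the peptide bond. Each protein has to be made in matched amounts, and in worms as in other animals these genes are among the most strongly transcribed. Several also carry snoRNA genes in their introns, whose RNAs guide the modification of ribosomal RNA. Many worm messages receive a spliced leader at their 5′ end, so an annotated gene start can be the splice site and transcription can begin further upstream.

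The promoter window of a gene covered the 1000 bp before its annotated start and the 200 bp after it. A gene was counted when the summit of a listed region fell in its window. The authors listed 30000 candidate regions for each replicate and 30000 for the pooled reads, most of which were never called bound, and a thresholded list of 218, here called reproducible peaks. That list is the top of the pooled list, and rank 1 is the highest signal value, the authors' own score for a region against the control. Of the 81 genes, 8 had a reproducible peak in the window. For the 7 of these that may be shown, 151 bases centred on the summit follow, because the sequence under the peak is what the members have beyond their names. Each reads 5′ to 3′ on the strand of the ribosomal protein gene. Capitals mark TACGGT or its reverse complement, a string picked after these sequences had been read.
rpl-3: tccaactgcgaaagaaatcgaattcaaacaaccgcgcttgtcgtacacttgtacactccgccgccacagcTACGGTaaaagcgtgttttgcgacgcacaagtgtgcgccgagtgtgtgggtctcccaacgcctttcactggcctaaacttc
rps-23: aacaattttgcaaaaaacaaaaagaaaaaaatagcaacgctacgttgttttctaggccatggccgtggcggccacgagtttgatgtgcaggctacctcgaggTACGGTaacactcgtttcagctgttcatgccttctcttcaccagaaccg
rpl-35: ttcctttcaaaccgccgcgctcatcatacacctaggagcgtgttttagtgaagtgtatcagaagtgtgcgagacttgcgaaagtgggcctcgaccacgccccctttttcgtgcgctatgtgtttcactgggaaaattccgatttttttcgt
rpl-43: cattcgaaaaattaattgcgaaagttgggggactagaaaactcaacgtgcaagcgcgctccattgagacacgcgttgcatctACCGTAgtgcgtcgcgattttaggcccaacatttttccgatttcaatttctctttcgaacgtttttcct
rpl-15: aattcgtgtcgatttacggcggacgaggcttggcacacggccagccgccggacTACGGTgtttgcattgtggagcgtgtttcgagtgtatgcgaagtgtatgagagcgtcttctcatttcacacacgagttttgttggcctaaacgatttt
rpl-20: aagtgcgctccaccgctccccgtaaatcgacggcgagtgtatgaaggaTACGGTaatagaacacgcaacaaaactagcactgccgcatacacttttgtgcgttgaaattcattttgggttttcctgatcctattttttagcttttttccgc
rps-1: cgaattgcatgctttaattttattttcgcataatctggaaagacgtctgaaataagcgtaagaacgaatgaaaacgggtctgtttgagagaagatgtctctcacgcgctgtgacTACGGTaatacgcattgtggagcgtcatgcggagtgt
The sequences were read from the RefSeq genome of WBcel235. They lie at chrIII:3867497-3867647 for rpl-3, chrIV:12391264-12391414 for rps-23, chrIII:7854636-7854786 for rpl-35, chrII:14154487-14154637 for rpl-43, chrIV:654849-654999 for rpl-15, chrIV:4749979-4750129 for rpl-20 and chrIII:4475521-4475671 for rps-1. The sequences of rps-23, rpl-15 and rpl-20 are from the minus strand and the others from the plus strand. In 6 of the 7 the string occurs once, with its centre 2.5 to 41.5 bp from the summit, and rpl-35 lacks it.

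The 8 genes at a reproducible peak were 9.88% of the 81, where 0.881% of all protein-coding genes had such a peak (176 of 19985). They comprised 5 large subunit genes (rpl-3, rpl-15, rpl-20, rpl-35 and rpl-43) and 3 small subunit genes (rps-1, rps-23 and rps-26). No stalk gene had one. Each gene had its own peak, so no pair of ribosomal protein genes shared a reproducible summit. The count describes these lists, since the genes were chosen with earlier results known and no test was made on them.

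Among the large subunit genes, rpl-3 had the strongest peak. Its product lies close to the peptidyl transferase centre. The peak (chrIII:3867372-3867771) had rank 3 and a signal value of 259 in the pooled list, rank 27 and 98.7 in replicate 1, and rank 3 and 160 in replicate 2. Signal values of different lists are on scales of their own and only ranks are set side by side. The product of rpl-35 sits at the exit of the peptide tunnel. Its peak (chrIII:7854511-7854910) had pooled rank 35 and signal value 169, with rank 117 in replicate 1 and rank 15 in replicate 2. For rpl-43, which encodes a zinc-binding protein, the peak (chrII:14154362-14154761) had pooled rank 46 and signal value 156, with rank 214 in replicate 1 and rank 18 in replicate 2. These 3 stood higher in replicate 2 than in replicate 1, and rpl-43 was only just among the 218 highest regions of replicate 1. The rpl-15 peak (chrIV:654724-655123) had pooled rank 55 and signal value 150, and ranked 86 and 72 in replicates 1 and 2. The rpl-20 peak (chrIV:4749854-4750253) had pooled rank 72 and signal value 138, and ranked 94 and 124. Here the replicates lay close together.

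Of the small subunit genes, rps-23 ranked highest. Its product lies at the decoding centre and bears on the accuracy of translation. The peak (chrIV:12391139-12391538) had pooled rank 11 and signal value 213, with rank 40 and 82.4 in replicate 1 and rank 10 and 117 in replicate 2. The peak of rps-26 (chrI:14759339-14759738) had pooled rank 82 and signal value 133, with rank 147 in replicate 1 and rank 71 in replicate 2. Its product lines the channel by which messenger RNA leaves the subunit. The rps-1 peak (chrIII:4475396-4475795) was the weakest of the 8, with pooled rank 192 and signal value 97.8. It ranked 162 in replicate 2 and only 1168 in replicate 1, so its place rests mainly on replicate 2. The authors' q-value in the pooled list was 0.00488 for 7 of the peaks, the lowest value of that list, and 0.0287 for rps-1. In replicate 1 the q-values were 0.125 for 6 of the 8 (the lowest of that list), 0.133 for rpl-43 and 0.436 for rps-1, and none passed 0.05. In replicate 2 they were 0.0102 for 7 and 0.0155 for rps-1.

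**Figure D1:**
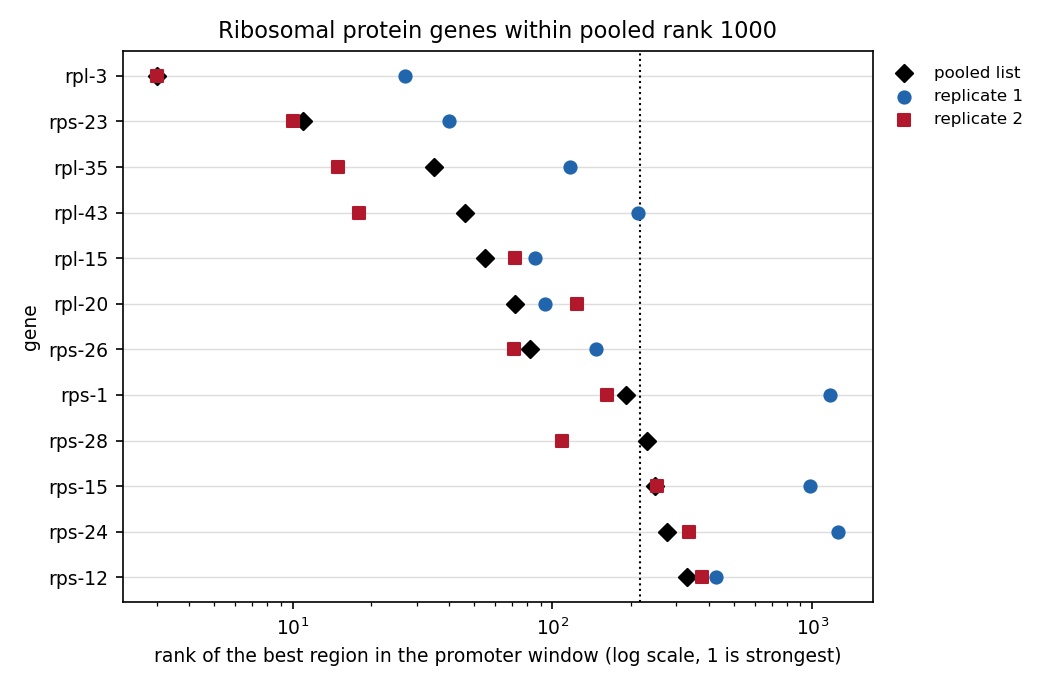
Rank of the best region in the promoter window (x axis, log scale, 1 is strongest) for the 12 ribosomal protein genes within pooled rank 1000 (y axis), with a symbol for the pooled list and for each replicate. The dotted line is rank 218. The upper 7 genes lie left of it in all 3 lists, and rps-1 lies right of it in replicate 1 only; rps-28 has no point for replicate 1.

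The next ribosomal protein genes followed directly below the threshold, and all were of the small subunit. The lowest reproducible peak had a signal value of 94.4. The region of rps-28 had pooled rank 231 and signal value 91.7, with rank 109 in replicate 2 and no listed region in its window in replicate 1. For rps-15 the pooled rank was 249 and the signal value 89.8, with rank 978 in replicate 1 and 252 in replicate 2. For rps-24 they were 277 and 87.5, with best ranks of 1262 in replicate 1 and 336 in replicate 2. That replicate 2 region lay 561 bp upstream, and the replicate 2 region at the pooled summit, 315 bp upstream, had rank 348. For rps-12 the pooled rank was 329 and the signal value 83.0, with ranks 427 and 376. With these 4, 12 of the 81 genes (14.8%) were within pooled rank 500, where 1.56% of all protein-coding genes were. There were still 12 within rank 1000, where the share of all protein-coding genes was 2.31%, and 21 (25.9%) within rank 5000, where it was 7.8%. The best of the others was rpl-24.2 at rank 1122, and rps-19, which encodes a protein of the small subunit head, had rank 1428. The latter was rank 374 in replicate 1 and 17676 in replicate 2, so the replicates did not agree on it. Between ranks 1000 and 5000 lay 9 genes, which besides these were rps-11, rpl-12, rps-5, rpl-7A, rpl-22, rps-16 and rpl-5, with signal values from 64.8 at rpl-24.2 down to 50.4 at rpl-5. The lowest was rank 28902, a region that lies in the windows of both rps-10 and rpl-24.1.

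**Figure D2:**
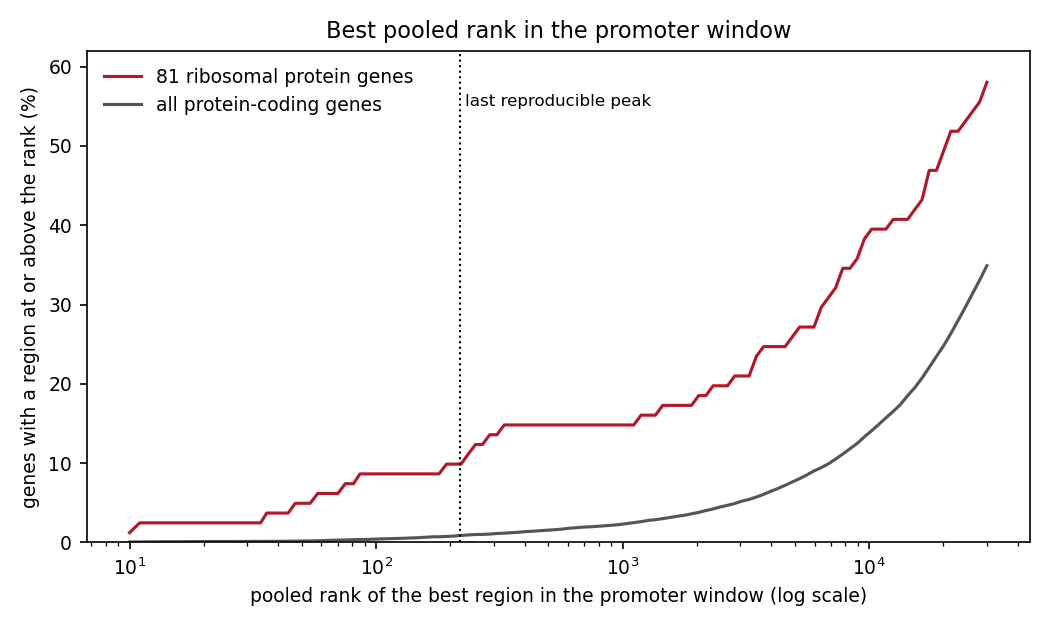
Share of genes (y axis, percent) with a region in the promoter window at or above a given pooled rank (x axis, log scale), for the 81 ribosomal protein genes and for all 19985 protein-coding genes. The dotted line is rank 218, where the shares are 9.88% and 0.881%; at the end of the list they are 58.0% and 34.9%.

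Over the whole pooled list, 47 of the 81 genes (58.0%) had a candidate summit in the window, where 34.9% of all protein-coding genes did. They were 32 of 47 large subunit genes, 15 of 31 small subunit genes and 0 of 3 stalk genes. The median pooled rank of the best region was 6304 over these 47 and 13412 over the 6975 protein-coding genes with a region. The median signal values were 47.3 and 39.4. Other lists of translation genes, given below, had median ranks from 5066 to 10792. A median better than 13412 was thus not particular to the ribosomal protein genes. At least 2 pooled regions lay in the windows of 8 genes (9.88%, against 5.17% of all protein-coding genes). Of the 34 genes without a pooled region, 15 had a candidate in a replicate list (44.1%), against 30.0% of the 13010 protein-coding genes without one. A low place in these lists is not a binding event, because they were built to include background.

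No listed region at all lay in the window of 19 ribosomal protein genes. They were rpl-4, rpl-16, rpl-19, rpl-26, rpl-32, rpl-37 and rpl-39 of the large subunit, rps-0, rps-2, rps-6, rps-7, rps-9, rps-13, rps-22, rps-25, rps-27 and rps-30 of the small subunit, and rla-1 and rla-2. Among all protein-coding genes, 54.4% had a region in at least 1 of the 3 lists, and 62 of the 81 (76.5%) did here. The stalk recruits elongation factors to the ribosome, and rla-0 encodes its base. The only stalk region was that of rla-0 in replicate 2, at rank 26742.

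Of 4 pairs of genes whose names share a number, only rpl-25.1 and rpl-25.2 had pooled ranks close together, at 5969 and 6304. The gene rpl-24.2 stood at rank 1122 and rpl-24.1 at 28902. For rpl-11.2 and rpl-11.1 the pooled ranks were 7290 and 27895. For rpl-41.2 the rank was 7309, while rpl-41.1 had no pooled region and rank 3131 in replicate 1 alone. The treatment of reads that map to both genes of a pair is not stated in the labels or files used here.

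The replicates agreed on the strong genes and less on the weak ones. Of the 218 highest regions of replicate 1, some lay in the windows of 7 ribosomal protein genes (0.655% of all protein-coding genes had one), and those of replicate 2 in the windows of 9 (0.881%). The same 7 genes, namely rpl-3, rpl-15, rpl-20, rpl-35, rpl-43, rps-23 and rps-26, were in both, where 0.44% of all protein-coding genes were. Replicate 2 added rps-1 and rps-28. Mitochondrial regions were listed in replicate 1 alone, where they made up 16 of its 218 highest, 13 of them above rpl-3, and lowered the ranks of nuclear genes there. Among its 218 highest nuclear regions the count was 7 genes. A candidate of any rank was listed for 42 genes in replicate 1 (51.9%, against 33.9% of all protein-coding genes) and for 50 in replicate 2 (61.7% against 35.1%). Both replicates listed a candidate for 35 genes (43.2% of the members against 17% of all protein-coding genes), though not always at the same place. At rpl-27, for example, the summit was 31 bp downstream of the start in replicate 1 and 808 bp upstream in replicate 2. Across those 35 genes Spearman's rho of the best ranks was 0.69, and without the 8 at a reproducible peak it was 0.34 over 27. The best ranks were paired by gene, whether or not the regions of the 2 lists coincided. Over the 3398 protein-coding genes with a region in both, rho was 0.27. These correlations are across genes of the same libraries, which are not independent replicates, and the genes at a peak were thresholded on these very lists.

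**Figure D3:**
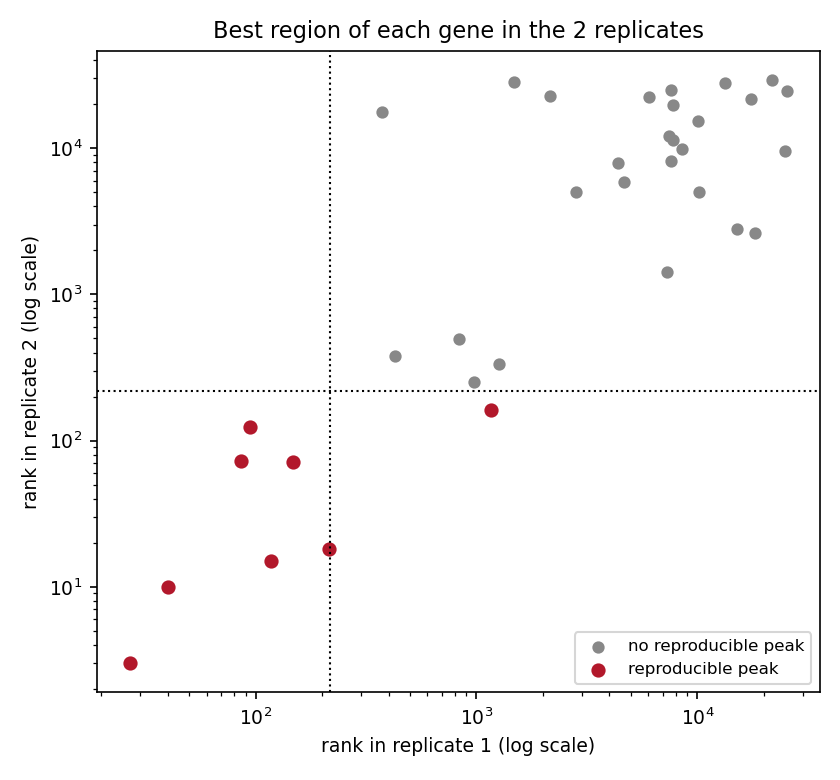
Best rank in replicate 1 (x axis) against replicate 2 (y axis), both on log scales, for the 35 ribosomal protein genes with a region in both lists. The regions of a gene in the 2 lists can lie at different places in its window. Dotted lines mark rank 218. The 8 genes at a reproducible peak (red) fill the lower left except rps-1, which lies at rank 1168 in replicate 1, and the other 27 genes (grey) scatter toward low ranks.

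All 8 reproducible summits lay upstream of the annotated starts, 7 of them between 276 and 423 bp away and that of rpl-43 at 732 bp. The position was -276 bp for rpl-20, -282 for rpl-3, -286 for rps-23, -322 for rps-1, -348 for rpl-15, -391 for rps-26, -423 for rpl-35 and -732 for rpl-43, where negative is upstream. The median was -335. Thus 7 of 8 lay 200 to 500 bp upstream, against 67 of the 168 other protein-coding genes at a reproducible peak (39.9%). None of the 8 lay within 200 bp of the start, against 59 of those 168 (35.1%). The 168 include the neighbours that share 6 of the 8 summits, such as tmem-107 at 66 bp. The 2 sets of genes are therefore not at separate peaks. Within 250 bp of the start in both directions, 0 of the 81 genes had a peak, and 0.415% of all protein-coding genes did. With a share that low, 0 of 81 is no sign of avoidance. The other genes had a median of -256 and quartiles of -497 and -144. Over all 47 ribosomal protein genes with a pooled region, the best summit was 200 to 500 bp upstream in 21 (44.7%), against 26.8% of the 6928 other genes. Every one of the 8 regions is 400 bp wide with its summit at the midpoint. The summits of the 2 replicates differed by 10 to 108 bp, with a median of 24.5 bp and the largest gap at rps-1.

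**Figure D4:**
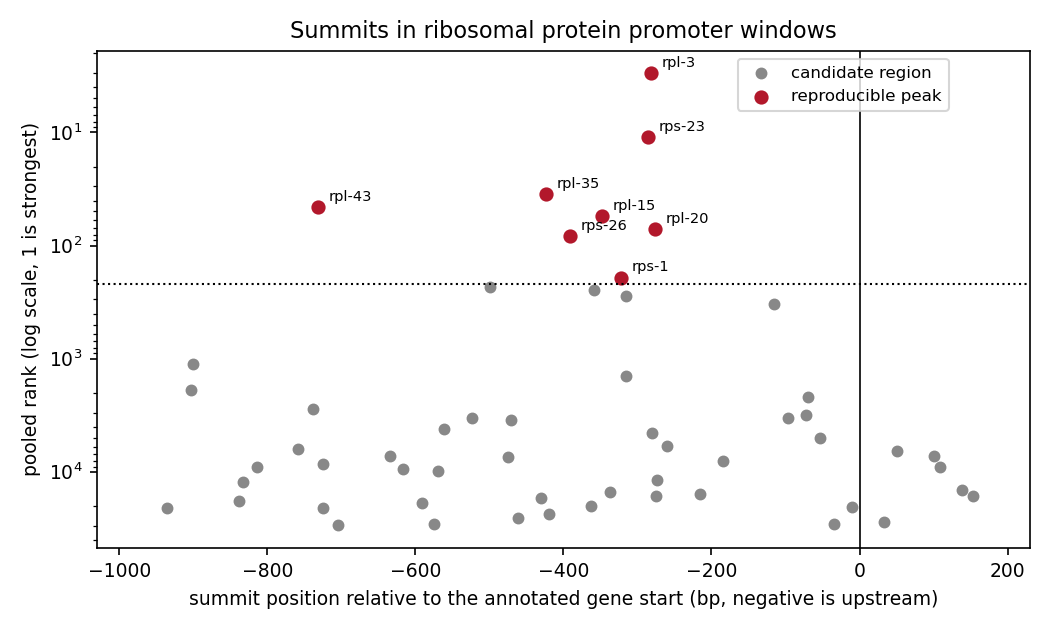
Position of each pooled summit relative to the annotated start of the ribosomal protein gene (x axis, bp, negative is upstream) and its pooled rank (y axis, log scale, strongest at the top). The dotted line is rank 218. The 8 reproducible peaks (red, named) lie from -732 to -276 bp, and none of them lies nearer to the start than 276 bp.

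Neighbouring genes shared most of these summits. All 8 summits lay outside the bodies of protein-coding genes. In 6 of 8 the summit was also in the window of another protein-coding gene that reads the other way, and in 4 that start was the nearer one. Such an arrangement is common among ribosomal protein genes. The upstream neighbouring protein-coding gene read the other way at 7 of the 8 (87.5%) and at 48 of the other 73 (65.8%). The share of the other reproducible summits that lie in 2 windows is not given here. At rps-23 the summit was 248 bp upstream of dpm-3. At rpl-20 it was 186 bp upstream of Y17G9B.5, at rpl-43 189 bp upstream of Y48B6A.1, and at rps-26 66 bp upstream of tmem-107. At rpl-15 the other start, K11H12.8, was farther (466 bp), as was ifet-1 at rps-1 (446 bp). The gene ifet-1 encodes a homologue of the translational repressor eIF4E transporter. The summits of rpl-3 and rpl-35 were in the window of no other protein-coding gene, and they had pooled ranks 3 and 35. With each summit given only to the nearest start, 4 genes (rpl-3, rpl-15, rpl-35 and rps-1) were at a peak, or 4.94% against 0.59% of all protein-coding genes. Which of the 2 genes at a shared summit the recovered protein belongs to was not tested.

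**Figure D5:**
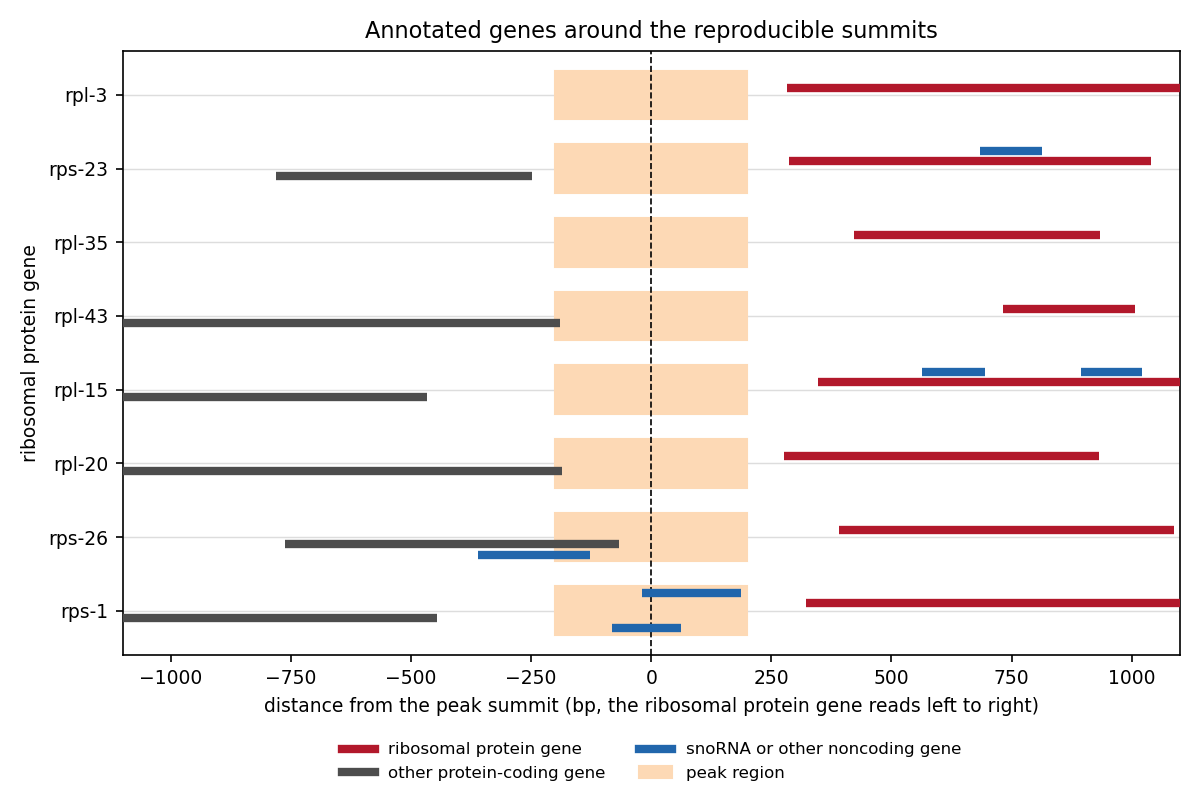
Annotated genes around each of the 8 reproducible summits (x axis, bp from the summit, with the ribosomal protein gene reading from left to right; y axis, the gene). Bars just above each line read to the right and bars below it to the left. The ribosomal protein genes begin 276 to 732 bp to the right, and in 6 of 8 another protein-coding gene begins 66 to 466 bp to the left.

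Small RNA genes were not at these summits, and snoRNA genes lay farther off at rps-26, rpl-15 and rps-23. No tRNA, snoRNA or snRNA gene lay within 100 bp of any of the 8. The nearest was the snoRNA gene F39B2.14, 127 bp from the rps-26 summit (chrI:14759178-14759412), within the body of tmem-107. At rpl-15 the snoRNA genes K11H12.13 and K11H12.12 lie inside the gene, 563 and 894 bp from the summit, and at rps-23 F28D1.13 lies inside it at 684 bp. A snoRNA gene lay inside 2 of the 8 genes at a peak and 11 of the other 73. At rps-1 the summit lay in 2 overlapping genes annotated only as noncoding RNA, F56F3.10 and F56F3.11, on opposite strands.

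The bases around these summits were rich in G and C. Within 50 bp the mean GC content was 50.7% (SD 4.67, n = 8 summits), from 43.6% at rpl-20 to 57.4% at rpl-3. It was 44.3% (SD 9.61) over the other 210 reproducible summits and 34.7% (SD 8.71) over the 29782 pooled candidates that are not reproducible. At the 47 other pooled summits in ribosomal protein windows it was 36.4% (SD 9.47). These classes differ in rank as well as in GC content, and the part of GC content in recovery was not tested. Among the 8, GC content was 57.4% at rpl-3 (rank 3), 43.6% at rpl-20 (rank 72) and 44.6% at rps-1 (rank 192).

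Strings of letters fixed for the purpose were searched on both strands within 150 bp of the summits, 5 of them taken from earlier results of these data. The string GGCCTA was in 6 of 8 summits (75%), in 16.2% of the other reproducible peaks and in 4.45% of the pooled candidates that are not reproducible. ACACGC was in 5 (62.5%, 19.5% and 4.86%) and CGGCCA in 3 (37.5%, 21.9% and 4.65%). GTACAC was in 1 (12.5%, 18.1% and 8.06%) and GGCCGA in 0 (0%, 21.9% and 4.38%). Strings that share letters, such as CGGCCA and GGCCGA, can match the same stretch. The core of the B box, the internal promoter element of tRNA genes, written GTTCNANNC, was in 0 of 8, against 31.4% and 11.6%. TATAAA was in 1 (12.5%, 31.0% and 33.2%), GAGAGA in 2 (25%, 28.6% and 15.4%) and TTTTTT in 7 (87.5%, 72.4% and 71.8%). With 8 summits, 1 summit more or less is a step of 12.5 percentage points, and a match is no evidence of a binding site.

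The string TACGGT, marked in the printed sequences, lay within 75 bp of 6 of the 8 summits. It was within that distance in 6 of the 210 other reproducible peaks (2.86%) and 4.09% of the pooled candidates that are not reproducible. At the 47 weaker pooled summits in ribosomal protein windows it was in 5 (10.6%). The string was picked from these 8 summits, so its share there is a description.

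Other genes of the translation machinery were counted in the same way. Of 70 mitochondrial ribosomal protein genes, 25 had a pooled region (35.7%, close to the 34.9% of all protein-coding genes) and 0 a reproducible peak. The strongest was mrpl-28, at rank 247 with its summit 45 bp upstream. Translation factors had 20 of 44 with a region (45.5%) and 1 with a peak (2.27%), iff-2, at rank 135 and 15 bp upstream. It encodes a homologue of eIF5A. Genes of ribosome biogenesis had 13 of 24 (54.2%) with a region and 1 with a peak (4.17%), pro-1, at rank 184 and 254 bp upstream. Aminoacyl-tRNA synthetases had 10 of 32 (31.2%) and subunits of RNA polymerases I and III 3 of 10 (30%), both below that 34.9%, with 0 peaks in either list. Their strongest regions were at ears-2 (rank 298, 10 bp upstream) and rpac-19 (rank 553, 170 bp upstream). The share of all protein-coding genes with a reproducible peak is 0.881%, so 0 in lists of this size is no sign of avoidance. Within pooled rank 1000 were 5 of the 44 translation factors, 3 of the 70 mitochondrial ribosomal protein genes and 1 in each remaining list. There the ribosomal protein genes had 14.8% and all protein-coding genes 2.31%. The median pooled rank of the best region was 5066 for translation factors, 6229 for aminoacyl-tRNA synthetases and 9307 for mitochondrial ribosomal proteins. It was 9697 for ribosome biogenesis and 10792 for the polymerase subunits. A difference between these lists and the ribosomal protein genes was not tested.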

How the data were processed

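Chromatin was immunoprecipitated from 2 biological replicates and sheared to 200 to 800 bp, per the labels. The authors deposited peak lists on assembly ce11, per the file headers: 30000 candidate regions per replicate and for the pooled reads, each made with the same control alignment, and 218 peaks thresholded by the irreproducible discovery rate. The aligner, caller and threshold were not given in the sources used here. A score deposited as signal value, of unstated scale, served to rank the regions of each list. A −log10 q-value by the caller was also deposited. Read depth is unknown.

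Gene starts came from Ensembl release 115 (WBcel235, the sequence of ce11; all regions ended within its chromosome lengths) and bases from the RefSeq genome. Python 3.11.15, pandas 2.3.3 and numpy 2.4.6 were used. The assignment was tested on simulated data with known positions. The genes and lists were chosen with earlier results of these data known, so counts stand beside the share of all protein-coding genes without a test. Named genes are those at a reproducible peak, in the 218 highest regions of a replicate or within pooled rank 1000, the best and the lowest of the rest, and the stalk genes; rps-19 and the others up to rank 5000, the 4 pairs and the 19 genes without a region were named after their values were seen. The other lists name members at a peak; their strongest genes where none was were named after their values were seen. Other windows, starts, assignments and each replicate alone were tried.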

Additional observations from a re-analysis of the deposited data

How the results depend on the processing

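Of 48 alternative values, 36 stayed within 1.5 times the main count or within the spread between replicates, and 12 did not. The narrow window, 250 bp on either side of the start, gave 0 genes at a reproducible peak in place of 8 and 16 with a pooled candidate in place of 47. It also gave 0 summits nearer to another start in place of 4, a median pooled rank of 8518 in place of 6304, and 14 genes with TACGGT in the window in place of 41; a smaller window holds fewer summits and bases by construction. With summits given to the nearest start alone, 4 genes were at a peak. With a replicate left out, the 218 highest regions of the other by signal value stood in for the reproducible peaks. The count of genes was then 7 to 9, and the median position was -362 to -349 bp in place of -335. The mean GC content was 48.8 to 51.3%, and 0 to 1 genes had a small RNA gene within 100 bp. Within 25 bp the mean GC content was 53.2% in place of 50.7%, and within 200 bp 1 summit had a small RNA gene. No paired analysis was possible because there is 1 group. The unknown read depth and the fixed width of 400 bp limit how finely positions can be read. The cause of these shifts was otherwise not tested. The TACGGT alternatives and that of nuclear regions alone were chosen after seeing the data.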

Other observations

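The string TACGGT was frequent upstream of ribosomal protein genes whether or not they had a peak. It occurred, on either strand, in the promoter window of 41 of the 81 ribosomal protein genes (50.6%), against 28.6% of 19973 nuclear protein-coding genes. The median GC content of the windows was 37.0% and 35.0%. Of its 45 matches in ribosomal protein windows, 34 lay 100 to 500 bp upstream of the start (75.6%), against 36.6% of matches in all protein-coding windows. The 8 genes at a reproducible peak are part of these counts, and the string was picked from their sequences.

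Genes with the string and genes with a peak overlapped only in part. A reproducible peak was present at 6 of the 41 ribosomal protein genes with the string (14.6%) and at 2 of the 40 without it (5.0%), which were rpl-35 and rps-26. The string was picked from sequences at these peaks, so a higher share of peaks among the 41 was built into the choice. A pooled candidate was present at 28 of 41 (68.3%) and 19 of 40 (47.5%). The 4 genes just below the threshold, rps-28, rps-15, rps-24 and rps-12, had no TACGGT in the window. Among protein-coding genes that are not ribosomal, 50 of 5670 with the string had a peak (0.882%) and 118 of 14222 without it did (0.830%). No test was made of these differences.

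The surroundings of the genes at a peak were as follows. The distance to the upstream neighbouring protein-coding gene had a median of 761 bp (range 456 to 11497) over the 8 genes at a peak and 543 bp (0 to 14392) over the other 73. The ranges overlap over nearly their whole length. A distance of at most 300 bp was found for 0 of the 8 and 10 of the 73. A pooled candidate was at 6 of those 10 (60.0%) and at 41 of the 71 members with a longer distance (57.7%). No test was made of these values. By chromosome, a peak was at 1 of 25 genes on I, 1 of 10 on II, 3 of 18 on III, 3 of 18 on IV, 0 of 8 on V and 0 of 2 on X. Over all protein-coding genes the shares with a peak were 0.834% on I, 1.13% on II, 1.44% on III, 0.884% on IV, 0.661% on V and 0.476% on X. A candidate in the pooled list was at 14, 6, 8, 13, 4 and 2 of these ribosomal protein genes, against 31.3, 28.6, 34.8, 34.7, 36.2 and 44.9% of all protein-coding genes of the same chromosomes.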
